A study of Mus musculus with 6 samples.

Results

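A set of 39 genes that mark the Lgr5 stem cells of the intestinal crypt or are targets of canonical Wnt signalling was followed in cells with and without interferon gamma (IFNg). The members were chosen by symbol from that list and by a mean of at least 10 scaled counts over the 6 libraries. That rule reads no IFNg effect, but the list itself was drawn up with earlier results of these data known. All 39 symbols were among the 23127 genes of the table, and 38 of them passed the minimum, as did 16095 genes in all. Notum, a secreted enzyme that removes the lipid from Wnt proteins, lay below it with a mean of 2.30 scaled counts, and Lef1, a TCF family transcription factor, was nearest above it with 30.5.

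The cells came from the small intestine of C57BL/6 Lgr5-GFP mice, in which green fluorescent protein reports Lgr5, and cells with high GFP were sorted. The 3 treated libraries were made from cells kept for 1.5 h with 1 ng/ml IFNg in ENR medium, which holds EGF, Noggin and R-spondin1. The 3 untreated libraries carry the label of no treatment, and their titles also give 1.5. R-spondin1 is itself a ligand of Lgr5 and Lgr4, and Noggin blocks BMP, so the treated cells met IFNg beside a signal that enhances Wnt. The protocol text is the same for all samples, and whether the untreated cells were kept in this medium is not stated. Libraries are named by group and by the last number of their titles (untreated 5, 1 and 9; IFNg 6, 2 and 10). A tag in the titles, unexplained by the labels, reads GFP1 in untreated 5 and IFNg 6 and GFP3 in the remaining 4. Nothing states that each library is a mouse of its own, and p-values therefore speak to library-to-library spread alone, which could be technical.

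Wnt proteins bind Frizzled receptors with Lrp5 or Lrp6 and keep beta-catenin from being destroyed, so that it can act with TCF/LEF proteins on target genes. R-spondins, bound by Lgr5 and Lgr4, remove the ligases Rnf43 and Znrf3 that otherwise clear Frizzled from the cell surface, and this signal keeps stem cells at the base of intestinal crypts. Several targets feed back on the pathway: Axin2, Nkd1, Rnf43, Znrf3, Notum and Sfrp5 all restrain it.

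Reads in genes numbered 28508762 to 40224497 per library, and 1 read was worth 0.853 to 1.05 scaled counts. As a check of the treatment, Irgm1, an IFNg-induced GTPase, had 1138, 937 and 966 scaled counts in untreated 5, 1 and 9 and 106819, 103897 and 94010.3 in IFNg 6, 2 and 10, and it rose in the test used here (log2 change 6.65 ± 0.23 SE, limma adjusted p = 6.72e-06). The epithelial list summed to 313283 to 674504 scaled counts in each library, and the leukocyte list to 149 to 290.4. Within the epithelial list, Epcam had 19431, 8445 and 8895 in untreated 5, 1 and 9 and 19346, 42859 and 73222 in IFNg 6, 2 and 10. The 8 markers of Paneth cells, which sit between the stem cells, were far from 0 in each library and varied widely, with 105296, 164029 and 360262 in untreated 5, 1 and 9 and 24141, 106983 and 201447 in IFNg 6, 2 and 10. Across tested genes, the GFP1 and GFP3 libraries stood apart: correlations of log2 values were 0.968 and 0.971 between GFP3 libraries of 1 group and 0.925 to 0.939 between a GFP1 library and a GFP3 library of its group. These run across genes, which are not independent replicates.

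Per kilobase of exon, the members ran from abundant to barely detected in these cells. Olfm4, a secreted glycoprotein of crypt base stem cells, was at a mean of 81531 scaled counts per kb over the 6 libraries, above 99.96% of tested genes. Phlda1, a Wnt-responsive pleckstrin homology protein, followed at 9548, then Prom1 (the membrane glycoprotein CD133) at 4676, Hopx (a homeodomain-only cofactor used as a reserve stem cell marker) at 3882 and Gkn3 at 3400.4. In all, 12 of 38 members lay above the 90th percentile of tested genes. Lgr5 itself, whose reporter set the sort gate, was at 474 scaled counts per kb and Lgr4, its close relative, at 156. The ligase genes differed too, with Rnf43 at 495 and Znrf3 at 41.6 scaled counts per kb. At the low end were Mex3a (18.2), Tert (13.7), Msi1 (9.70), Lef1 (3.48) and Notum (0.955). Whether counting used strand is not given in the sources used here, and 22 of the 39 members overlap another annotated gene, so their values are uncertain to that extent. Exon lengths were the union of annotated exons, and neighbours in this order often overlapped in their libraries: Soat1 and Cdca7, for example, had means of 1501 and 1514 scaled counts per kb.

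**Figure D1:**
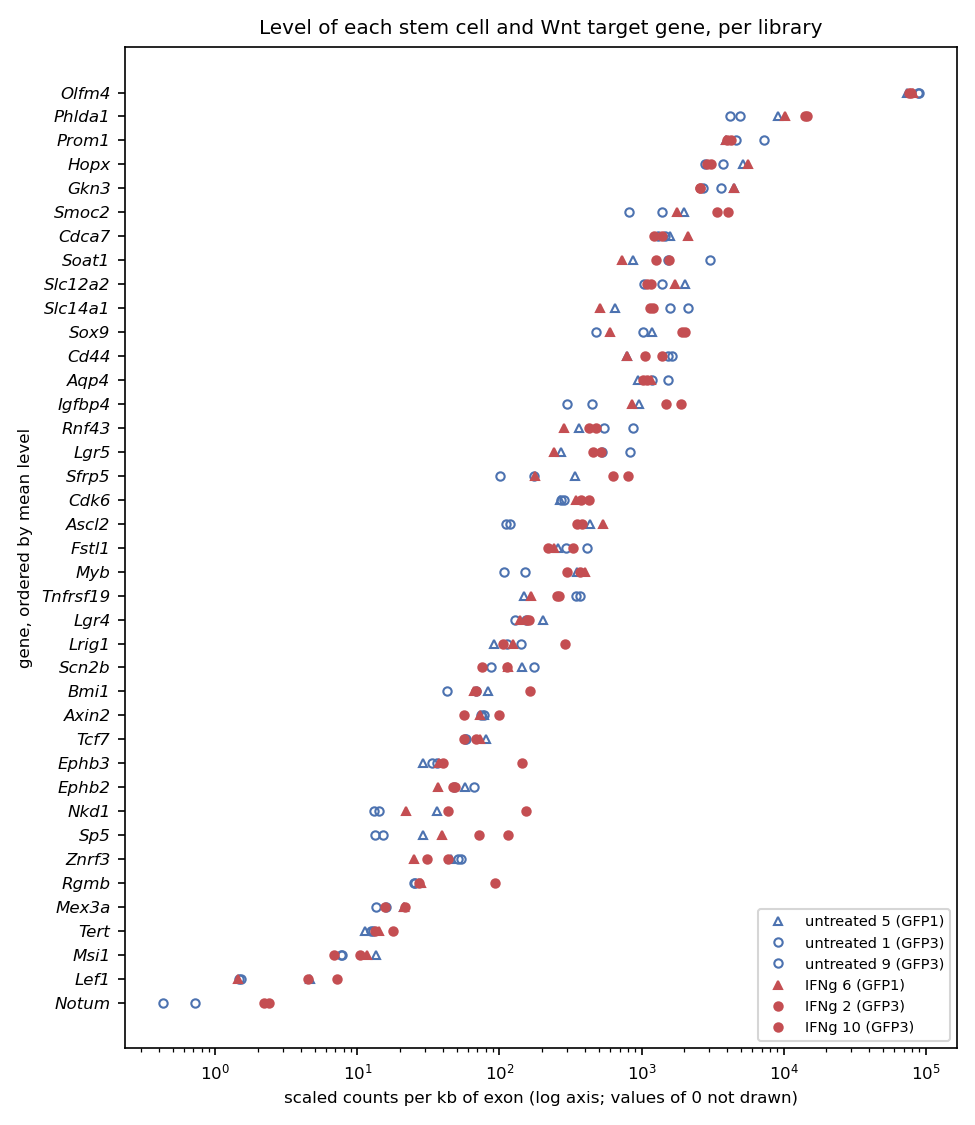
Scaled counts per kb of exon (log axis) for each member and library, ordered by mean; open symbols are untreated and filled symbols IFNg, triangles GFP1 and circles GFP3. Olfm4 stands apart at the top with 81531 scaled counts per kb, and the blue and red symbols of most genes are mixed.

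No member passed the test of IFNg against untreated. Of 38 tested members 0 were called in limma, where 0.429% of all tested genes were (0.416% higher and 0.0124% lower). EdgeR also called 0 (beside 0.36% of genes higher and 0.0124% lower), and DESeq2 called 1, Sp5 (beside 2.84% higher and 0.0497% lower). With the tag as a block the count was 0 as well (beside 0.671% higher and 0.0186% lower). Before adjustment, 6 members had a p under 0.05 and were higher (of 38, beside 8.46% of all genes) and 0 were lower (beside 0.758%): Sp5, Phlda1, Igfbp4, Smoc2, Ascl2 and Myb. Log2 changes, on the log2(scaled count + 1) scale, were above 0 for 20 members and below 0 for 18, with a median of 0.02 beside -0.08 over all tested genes. In these bulk libraries, fewer cells of a kind and less RNA per cell cannot be told apart. All cells had been sorted for high GFP from the Lgr5 reporter, so Lgr5 was read in cells already selected for it.

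**Figure D2:**
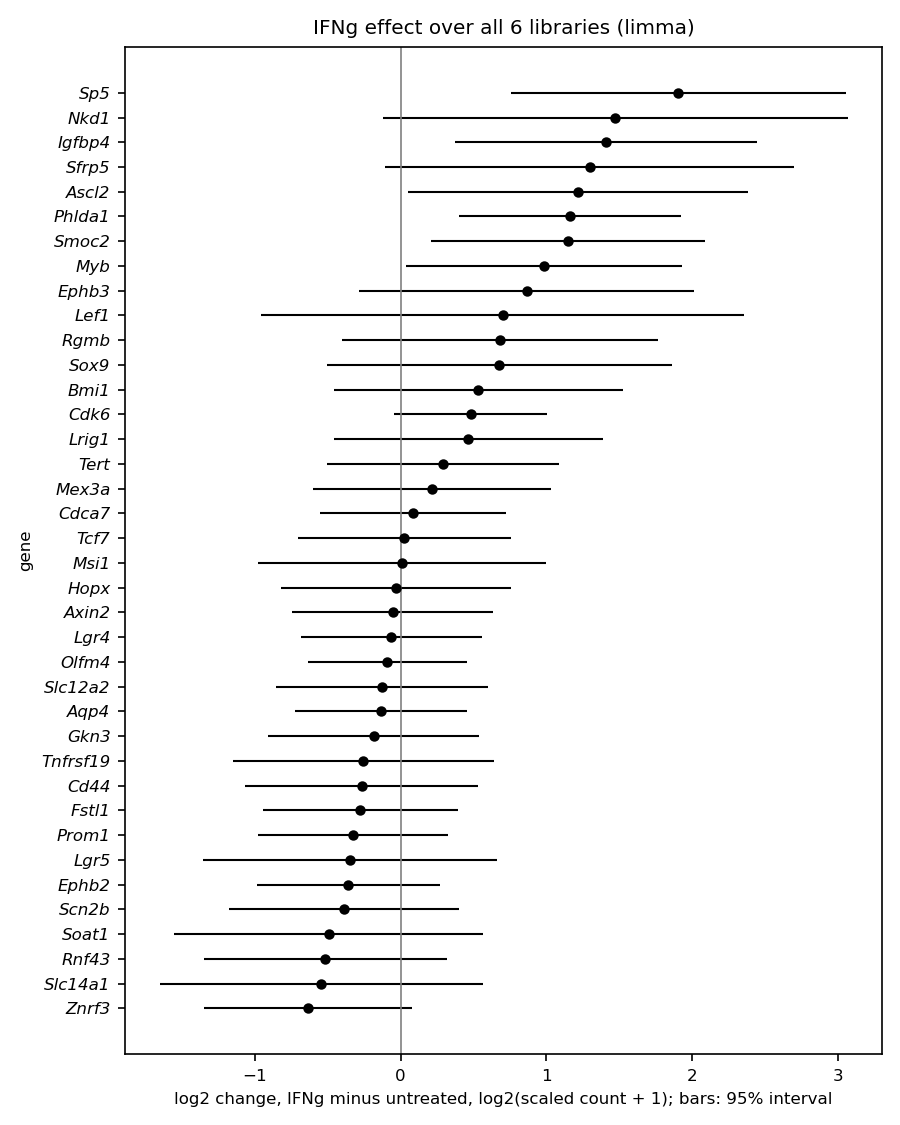
Log2 change of 38 members, IFNg minus untreated, in limma over all 6 libraries (points) with 95% intervals (bars). Only the intervals of Sp5, Igfbp4, Phlda1, Smoc2, Ascl2 and Myb exclude 0 before adjustment, all on the higher side.

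No receptor or ligase at the cell surface passed the test. Lgr5 (chromosome 10, 115450311 to 115587780, minus strand, mm10) had 2801, 8499 and 5366 scaled counts in untreated 5, 1 and 9 and 2484, 5309.6 and 4706 in IFNg 6, 2 and 10. The groups overlapped, and untreated 1 was the highest library (log2 change -0.35 ± 0.45 SE, 95% interval -1.36 to 0.66, limma adjusted p = 0.907). Lgr4 (chromosome 2, 109917647 to 110014257, plus strand), the R-spondin receptor with the wider expression, had 1183, 755 and 904 scaled counts in untreated 5, 1 and 9 and 817, 922 and 943 in IFNg 6, 2 and 10, and its IFNg libraries lay inside the range of the untreated ones (log2 change -0.06 ± 0.28 SE, 95% interval -0.69 to 0.56, limma adjusted p = 0.972). Rnf43 (chromosome 11, 87662722 to 87735539, plus strand) had 2378, 5716 and 3542 scaled counts in untreated 5, 1 and 9 and 1859, 3149 and 2816 in IFNg 6, 2 and 10. It was highest in untreated 1 and lowest in IFNg 6, with overlap between the groups (log2 change -0.52 ± 0.37 SE, 95% interval -1.35 to 0.32, limma adjusted p = 0.848). Znrf3 (chromosome 11, 5276324 to 5444847, minus strand), the partner ligase, was lower in all 3 IFNg libraries than in any untreated one, with 362, 423 and 403 scaled counts in untreated 5, 1 and 9 and 196, 340.3 and 245 in IFNg 6, 2 and 10. Among the tested members it was the only one whose IFNg libraries all lay below the untreated ones, which held for 5.06% of all tested genes, and the difference did not pass (log2 change -0.64 ± 0.32 SE, 95% interval -1.35 to 0.08, limma adjusted p = 0.633).

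Among feedback inhibitors and nuclear factors of the pathway, Axin2, the scaffold of the beta-catenin destruction complex often used as a readout of Wnt activity, did not pass. It had 431, 430.2 and 409.9 scaled counts in untreated 5, 1 and 9 and 402, 543 and 312 in IFNg 6, 2 and 10, so the untreated libraries lay inside the range of the treated ones (log2 change -0.05 ± 0.30 SE, 95% interval -0.74 to 0.64, limma adjusted p = 0.980). Sp5 (chromosome 2, 70474923 to 70477729, plus strand), a zinc finger repressor that is a direct beta-catenin target, had the smallest p of the members. Its values were 61.1, 31.8 and 27.8 scaled counts in untreated 5, 1 and 9 and 82.7, 151 and 240.4 in IFNg 6, 2 and 10. Every IFNg library was above every untreated one, but the 2 GFP1 libraries were close, at 61.1 and 82.7 (log2 change 1.90 ± 0.51 SE, 95% interval 0.76 to 3.05, limma adjusted p = 0.294). DESeq2 on recovered reads called it (adjusted p = 0.0180, where 2.84% of genes were called higher), while edgeR did not (adjusted p = 0.327), and over the alternatives its adjusted p ran from 0.00655 to 0.946.

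Promoter letters were read for the members because Wnt targets are reached through TCF/LEF sites and IFNg genes through GAS and ISRE sites. RefSeq windows (GRCm38.p6) from 250 bases before to 50 after a start were found for 29 members, 39 windows in all, and both strands were searched. GAS letters were TTCNNNGAA, and ISRE letters were GAAA, any 2 bases and GAAA again, so these motifs can overlap. TCF/LEF letters were read in 2 forms that share all but the last base. CTTTGAT was in 2 member windows (5.13%, beside 3.73% of all 32851 windows), those of Sp5 and Tnfrsf19. The other form, CTTTGAA, was in 1 (2.56%, beside 5.14%), that of Scn2b. GAS letters were in 3 (7.69%, beside 8.30%), those of Cdca7, Scn2b and Tnfrsf19, and ISRE letters in 0 (beside 3.44%). For scale, of 62 windows of the genes that rose after IFNg, 32.3% held the GAS and 30.6% the ISRE letters. The stretches below hold the TCF/LEF letters of the member with the smallest p (Sp5) and of a member that differed between the title tags (Tnfrsf19), and the GAS letters of members that showed no IFNg call (Cdca7, Scn2b). Each is written 5′ to 3′ along the gene, with the matched letters in capitals; in Tnfrsf19 they read on the other strand.
Sp5 (chr2:70474794-70474850, plus strand, match from 104 bases before the start): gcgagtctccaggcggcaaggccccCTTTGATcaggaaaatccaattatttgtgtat
Tnfrsf19 (chr14:61038158-61038214, minus strand, match from 202 bases before a start): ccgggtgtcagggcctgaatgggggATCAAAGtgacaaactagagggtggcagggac
Cdca7 (chr2:72475985-72476043, plus strand, match from 209 bases before the start): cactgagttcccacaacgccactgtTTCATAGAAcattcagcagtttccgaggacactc
Scn2b (chr9:45117697-45117755, plus strand, match from 154 bases before the start): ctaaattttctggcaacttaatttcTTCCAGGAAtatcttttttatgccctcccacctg
Of the 9 members that rose in the GFP3 libraries 6 had windows, and Sp5 was the only one with any of the 4 motifs. A match is a description of these letters, not a tested site, and a window without them says nothing of binding elsewhere.

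Nkd1, which binds Dishevelled and restrains Wnt signalling, had 166, 59.4 and 64.9 scaled counts in untreated 5, 1 and 9 and 99.8, 199 and 705 in IFNg 6, 2 and 10. IFNg 10 was 3.55 times the next library, and IFNg 6 lay below untreated 5 (log2 change 1.47 ± 0.70 SE, 95% interval -0.12 to 3.07, limma adjusted p = 0.611). Sfrp5, a secreted Wnt-binding inhibitor, had 650.0, 334 and 191 scaled counts in untreated 5, 1 and 9 and 338, 1517 and 1203 in IFNg 6, 2 and 10. Here both GFP3 libraries with IFNg were high and IFNg 6 was among the low ones (log2 change 1.30 ± 0.62 SE, 95% interval -0.11 to 2.70, limma adjusted p = 0.611). Sox9, a transcription factor of crypt progenitors and Paneth cells, showed the same arrangement with 4872, 4210.4 and 1971 scaled counts in untreated 5, 1 and 9 and 2478, 8010.2 and 8352 in IFNg 6, 2 and 10 (log2 change 0.68 ± 0.52 SE, 95% interval -0.50 to 1.86, limma adjusted p = 0.864). Tcf7 lay between 148 and 209.6 scaled counts in the 6 libraries. Lef1 had 41.1, 12.9 and 13.4 scaled counts in untreated 5, 1 and 9 and 12.8, 63.6 and 39.5 in IFNg 6, 2 and 10, high in untreated 5 and in both GFP3 libraries with IFNg. Neither passed (limma adjusted p = 0.989 and 0.893). Notum had at most 5.78 scaled counts in any library and was not tested.

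Ascl2 (chromosome 7, 142966829 to 142969264, minus strand), the basic helix-loop-helix factor that sets crypt base stem cell fate with beta-catenin, was low in the 2 untreated GFP3 libraries alone. Its values were 702, 193 and 180.2 scaled counts in untreated 5, 1 and 9 and 866, 574 and 619 in IFNg 6, 2 and 10, and untreated 5 was above both IFNg libraries tagged GFP3 (log2 change 1.22 ± 0.51 SE, 95% interval 0.05 to 2.38, limma adjusted p = 0.507). Without untreated 5 it passed (log2 change 1.85, limma adjusted p = 0.0302), as did Myb and Phlda1, 3 of 38 members where 2.27% of all genes were called higher and 0.0186% lower. Myb, a transcription factor needed for crypt progenitors, had 3147, 1345 and 957 scaled counts in untreated 5, 1 and 9 and 3555, 2666 and 3307 in IFNg 6, 2 and 10. Again untreated 1 and 9 were the 2 low libraries (log2 change 0.98 ± 0.42 SE, 95% interval 0.03 to 1.93, limma adjusted p = 0.513; 0.0445 without untreated 5). Tnfrsf19 (Troy), a Wnt target that marks Lgr5 cells, and Cd44, an adhesion receptor of crypt cells with 5373, 11125 and 10342 without IFNg and 5315, 9410.1 and 7127 with it, had log2 changes of -0.26 and -0.26 and did not pass (limma adjusted p = 0.925 and 0.911). Ephb2 and Ephb3, the receptors that position cells along the crypt axis, had -0.36 and 0.86 (adjusted p = 0.865 and 0.752 in limma).

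Of the secreted and signal-modulating markers, Olfm4 was the steadiest. It had 219689, 262029 and 266604 scaled counts in untreated 5, 1 and 9 and 240556, 225396 and 234691 in IFNg 6, 2 and 10, a spread of 1.21-fold from lowest to highest (log2 change -0.09 ± 0.24 SE, 95% interval -0.64 to 0.46, limma adjusted p = 0.956). Phlda1 (chromosome 10, 111506286 to 111508645, plus strand) had 20051, 10897 and 9286 scaled counts in untreated 5, 1 and 9 and 22469, 32467 and 31151 in IFNg 6, 2 and 10. Each IFNg library was above each untreated one, although IFNg 6 and untreated 5 were again close (log2 change 1.16 ± 0.34 SE, 95% interval 0.40 to 1.92, limma adjusted p = 0.304; 0.0364 without untreated 5). Smoc2, a matricellular calcium-binding protein of the stem cell signature, had 13873, 9703 and 5648 scaled counts in untreated 5, 1 and 9 and 12323, 28295 and 23633 in IFNg 6, 2 and 10, so the groups overlapped through the GFP1 libraries (log2 change 1.15 ± 0.41 SE, 95% interval 0.21 to 2.09, limma adjusted p = 0.395). Igfbp4, which binds insulin-like growth factors, did likewise with 4232, 1981 and 1329 scaled counts in untreated 5, 1 and 9 and 3787, 8363 and 6580.4 in IFNg 6, 2 and 10 (log2 change 1.41 ± 0.46 SE, 95% interval 0.37 to 2.44, limma adjusted p = 0.342). Rgmb, a co-receptor of BMP signalling, was higher in each IFNg library (206, 193 and 196 without IFNg and 217, 209 and 713 with it), but IFNg 6 and 2 exceeded the highest untreated library by little and the difference rested on IFNg 10 (log2 change 0.68 ± 0.48 SE, 95% interval -0.40 to 1.77, limma adjusted p = 0.843). Fstl1 and Gkn3, both secreted, had log2 changes of -0.28 and -0.19 and did not pass (limma adjusted p = 0.893 and 0.931).

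Transporters, channels and enzymes of the signature did not pass either. Slc12a2, the sodium, potassium and chloride cotransporter, ran from 11343 to 21923 scaled counts over the libraries (log2 change -0.13, limma adjusted p = 0.955). Soat1, a cholesterol acyltransferase, had 8531, 29850.2 and 14914 scaled counts in untreated 5, 1 and 9 and 7181, 15297 and 12426 in IFNg 6, 2 and 10, with untreated 1 far above the rest. The water channel Aqp4, the urea transporter Slc14a1, the sodium channel subunit Scn2b and Soat1 had log2 changes of -0.13, -0.54, -0.38 and -0.49. Their adjusted p-values in limma were 0.939, 0.880, 0.880 and 0.886. Markers tied to slow-cycling or reserve stem cells were Bmi1 (a Polycomb subunit), Hopx, Tert (telomerase), Lrig1 (an inhibitor of EGF receptors) and the RNA-binding proteins Msi1 and Mex3a. Of these, Bmi1 and Lrig1 stood high in IFNg 10 alone, with 329.7, 274 and 169 without IFNg and 264, 271 and 647 with it for Bmi1 and 509.9, 627 and 796 without IFNg and 701, 590.1 and 1617 with it for Lrig1. Their log2 changes were 0.53 and 0.46 (limma adjusted p = 0.876 and 0.880). Tert, at 65.3, 71.4 and 74.2 without IFNg and 81.9, 102 and 76.3 with it, was higher in each IFNg library by little, and Hopx, at 7849, 4219 and 5656 without IFNg and 8516, 4397 and 4676 with it, overlapped. Hopx, Msi1, Mex3a and Tert had log2 changes of -0.03, 0.01, 0.22 and 0.29, and the first of these turned positive in DESeq2 (0.01). Prom1 had 28075, 52241 and 33298 scaled counts in untreated 5, 1 and 9 and 28392, 30737 and 28579 in IFNg 6, 2 and 10, highest in untreated 1. Prom1 (log2 change -0.32) and Cdca7, a Myc-responsive chromatin factor (0.09), did not pass (limma adjusted p = 0.880 and 0.964). Cdk6, the cyclin D kinase, had 3707, 3988 and 3816 scaled counts in untreated 5, 1 and 9 and 4859, 5269 and 5989.9 in IFNg 6, 2 and 10. Its groups did not overlap, and the difference was small (log2 change 0.48 ± 0.23 SE, 95% interval -0.04 to 1.01, limma adjusted p = 0.614).

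Over the whole set, 6 members had all IFNg libraries above all untreated ones (Sp5, Phlda1, Cdk6, Rgmb, Ephb3 and Tert), beside 8.13% of all tested genes, and 1 had all below. That is 18.4% of the tested members in either direction, beside 13.2% of all genes. In Ephb3 the values were 194, 221 and 240.0 without IFNg and 248, 264 and 951 with it, so that IFNg 10 was 3.60 times the next library. IFNg 10 was more than 1.5 times the next library for 6 members (Lrig1, Bmi1, Rgmb, Ephb3, Sp5 and Nkd1), 15.8% beside 7.59% of all tested genes.

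The 4 libraries tagged GFP3 gave a different count from all 6. In them 9 of 38 members rose with IFNg (23.7%) and 0 fell, where 8.27% of all genes were called higher and 0.0746% lower. The test had 2 libraries a group, and since the list was drawn up with earlier results known, these shares are a description. Sp5 had 6.57 times the untreated mean (log2 change 2.64 ± 0.41 SE, limma adjusted p = 0.00655) and Nkd1 7.27 times (log2 change 2.57 ± 0.56 SE, limma adjusted p = 0.0281). Sfrp5 rose 5.19-fold (log2 change 2.42 ± 0.34 SE, limma adjusted p = 0.00475), Igfbp4 4.51-fold (log2 change 2.19 ± 0.28 SE, limma adjusted p = 0.00369) and Smoc2 3.38-fold (log2 change 1.80 ± 0.31 SE, limma adjusted p = 0.00937). The rises of the transcription factors were 3.20-fold for Ascl2, 2.65-fold for Sox9 and 2.60-fold for Myb, and that of Phlda1 was 3.15-fold (limma adjusted p = 0.00922, 0.0396, 0.0165 and 0.00513). The 9 included the feedback inhibitors Nkd1 and Sfrp5, while Axin2, Lgr5, Rnf43 and Znrf3 were not among them, with log2 changes of -0.03, -0.43, -0.60 and -0.51 in the same libraries. Epcam, of the epithelial list and not a member, also rose in these libraries (log2 change 2.69 ± 0.30 SE, limma adjusted p = 0.00248). Cdh1, Krt8, Krt18 and Vil1 of the same list did not. Of the members, Ascl2, Igfbp4, Phlda1, Sfrp5, Smoc2 and Sp5 passed whichever GFP3 library was left out. Nkd1 was lost without untreated 1, untreated 9 or IFNg 10, Sox9 without untreated 9, IFNg 2 or IFNg 10, and Myb without IFNg 10, which left 6 rises (beside 4.65% of all genes). In these fits 1 group had a single library, assumed to vary like the other group.

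**Figure D3:**
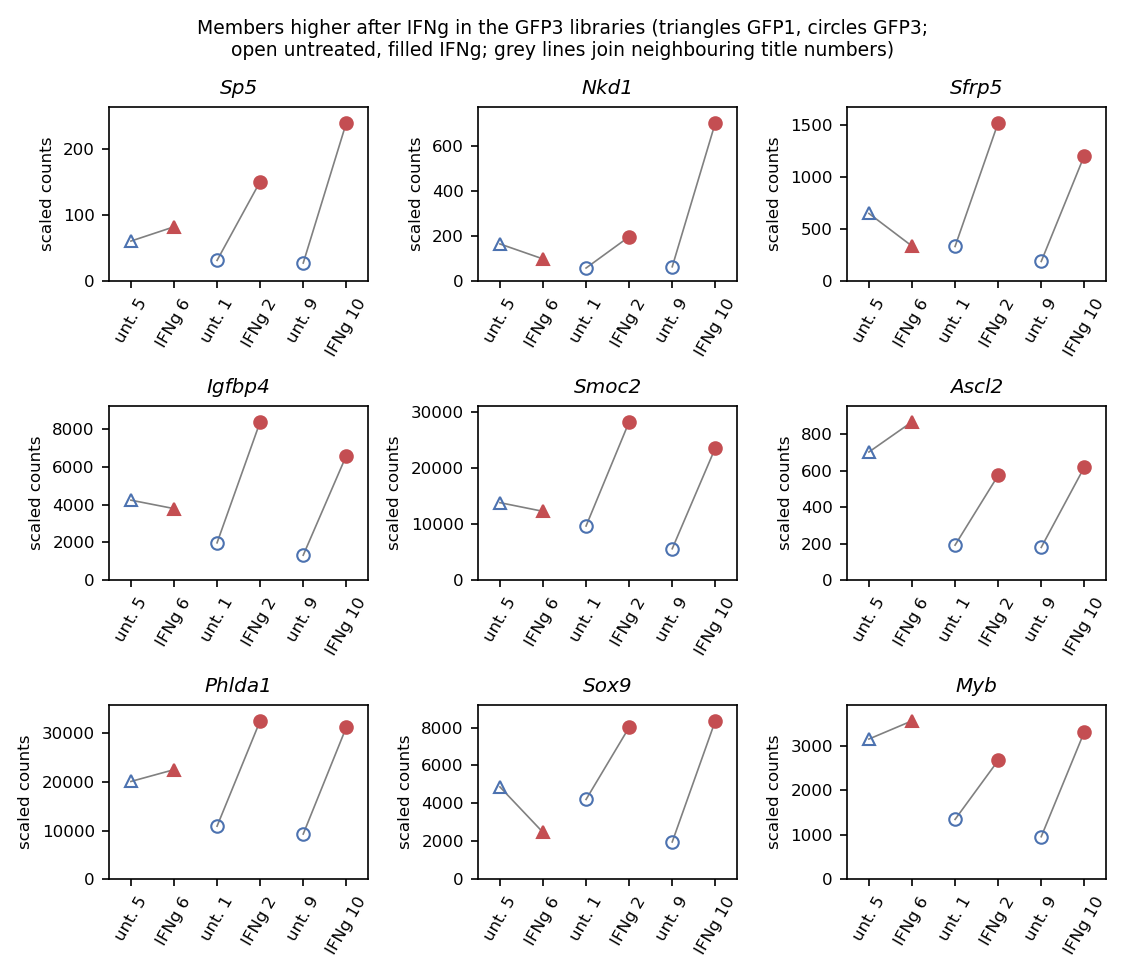
Scaled counts of the 9 members that rose with IFNg in the GFP3 libraries, per library; open symbols are untreated, filled symbols IFNg, triangles GFP1, circles GFP3, and grey lines join neighbouring title numbers. In each panel untreated 5 lies above untreated 1 and 9, and the line from untreated 5 to IFNg 6 rises less than the other lines or falls.

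In the GFP1 libraries the same 9 genes did not rise together. From untreated 5 to IFNg 6 their log2 differences were 0.43 for Sp5, 0.30 for Ascl2, 0.18 for Myb, 0.16 for Phlda1, -0.16 for Igfbp4, -0.17 for Smoc2, -0.73 for Nkd1, -0.94 for Sfrp5 and -0.98 for Sox9. The 9 were chosen by their rise in the GFP3 libraries, which favours low values in untreated 1 and 9, so where untreated 5 lies beside them and the smaller GFP1 effect are partly set by that choice and are given as a description. In untreated 5 each of the 9 was above both other untreated libraries, which held for 21 of 38 members and 40.9% of all genes. The difference of the IFNg effect between the tags had an unadjusted p under 0.05 for 10 members, all with a smaller effect in GFP1 (the 9 and Lef1), where 10.6% of all genes did. None passed adjustment in limma, and neither did any gene of the table (0.0% called), with 1 GFP1 library a group, assumed to vary like the GFP3 libraries; edgeR called 0 members and DESeq2 6, all smaller in GFP1 (beside 4.08% of all genes). Leaving out untreated 1, untreated 9 or IFNg 2 gave 5, 3 and 2 members in limma, all with a smaller effect in GFP1 (beside 2.38%, 0.683% and 3.36% of all genes), and leaving out IFNg 10 gave 0. For Sfrp5 the difference was -3.36 ± 0.59 SE on the log2 scale (limma adjusted p = 0.117). Of a list of 9 immediate early and heat shock genes that respond to cell handling, 0 passed in limma over all libraries. In DESeq2 over all libraries 2 passed, Jun and Egr1 (adjusted p = 0.0195 and 0.00108, where 2.84% of all genes were called higher). The same 2 rose in the GFP3 libraries in limma (beside 8.27% of all genes). The list summed to 90219, 108362 and 105767 in untreated 5, 1 and 9 and 115999, 166374 and 189982 in IFNg 6, 2 and 10. In untreated 5, 2 of the 9 (Jun and Egr1) lay above both other untreated libraries and 5 below both. Their part in the result was not tested.

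**Figure D4:**
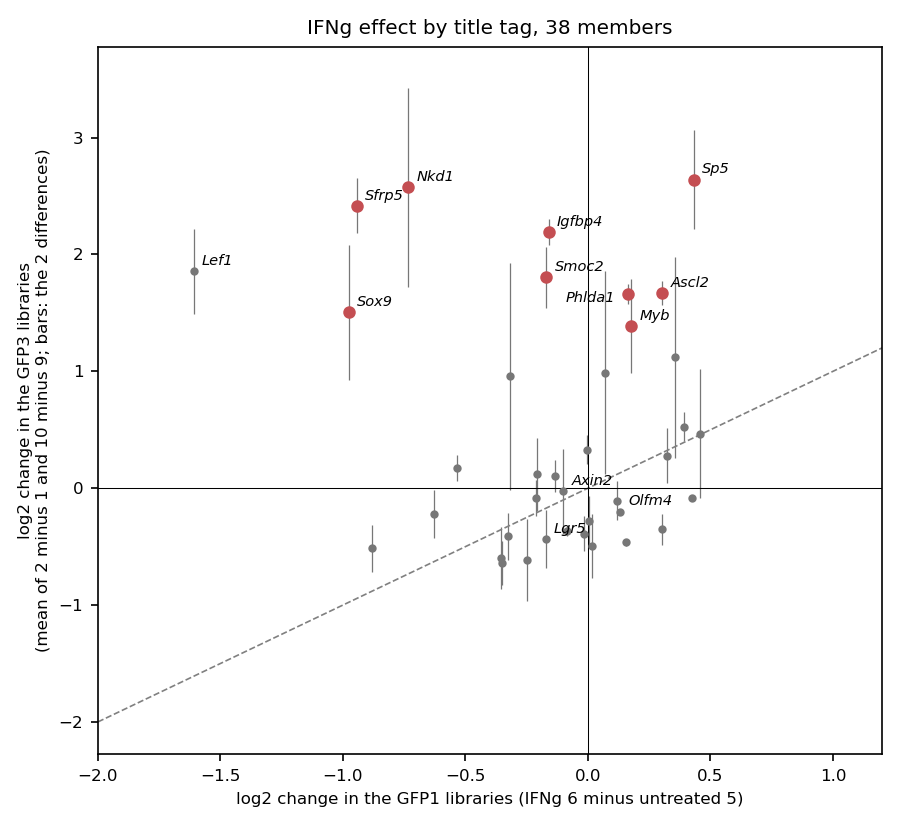
Log2 change with IFNg in the GFP1 libraries (x axis) and the mean of both differences in the GFP3 libraries (y axis, bars showing the 2 differences) for 38 members; the dashed line marks equal change and red points the 9 members that rose in the GFP3 libraries. The red points, chosen by their y values, lie above the line, with GFP1 values between -0.98 and 0.43.

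With all libraries in the fit, Lgr5 was called lower in the GFP1 libraries, while the share of members called was near that of all genes. The Lgr5 call was lost when untreated 5, untreated 1, IFNg 2 or IFNg 10 was left out. With treatment as a covariate, 3 of 38 members differed between the tags (7.89%, beside 7.75% of all genes), and all 3 were lower in GFP1, where 5.47% of genes were. Lgr5 had 2801 and 2484 scaled counts in the GFP1 libraries and 4706 to 8499 in the GFP3 libraries (log2 difference -1.14 ± 0.24 SE, limma adjusted p = 0.0346). Slc14a1 had 2614 and 2047 scaled counts in untreated 5 and IFNg 6. In untreated 1 and 9 and IFNg 2 and 10 it had 8536, 6305, 4808 and 4616 (log2 difference -1.35 ± 0.21 SE, limma adjusted p = 0.0227). Tnfrsf19 had 708 and 788 in untreated 5 and IFNg 6, and 1756, 1633, 1248 and 1212 in untreated 1 and 9 and IFNg 2 and 10 (log2 difference -0.95 ± 0.23 SE, limma adjusted p = 0.0455). The tags did not overlap for any of these 3 genes, which largely follows from choosing them by their tag difference. The share of members was near that of all genes, and leaving out untreated 1, IFNg 2 or IFNg 10 left 0 members called (beside 0.304%, 0.721% and 0.913% of all genes). Leaving out untreated 5 left 1, Sfrp5 (beside 2.7%), so that none of the 3 passed without it. With a mean of at least 50, TMM scaling or DESeq2 the members numbered 5, 5 and 10, beside 10.4%, 9.0% and 17.9% of the genes tested. Cd44, Soat1 and Rnf43 leaned lower in GFP1 without passing, with log2 differences of -0.81, -1.12 and -0.80 (limma adjusted p = 0.0542, 0.0553 and 0.0795). Other members leaned the other way without passing: Hopx, Gkn3 and Ascl2 had log2 differences of 0.80, 0.65 and 1.22 (limma adjusted p = 0.0542, 0.0920 and 0.0613). Of the 8 Paneth cell markers, 2 (Lyz1 and Itln1) were lower in GFP1 in limma and 6 did not pass. Their sums were 24141 and 105296 in GFP1 and 106983 to 360262 in GFP3, nearly touching, and the sum was also lower with IFNg in each pair of neighbouring numbers. None of the 8 was at 0, and their part was not tested.

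**Figure D5:**
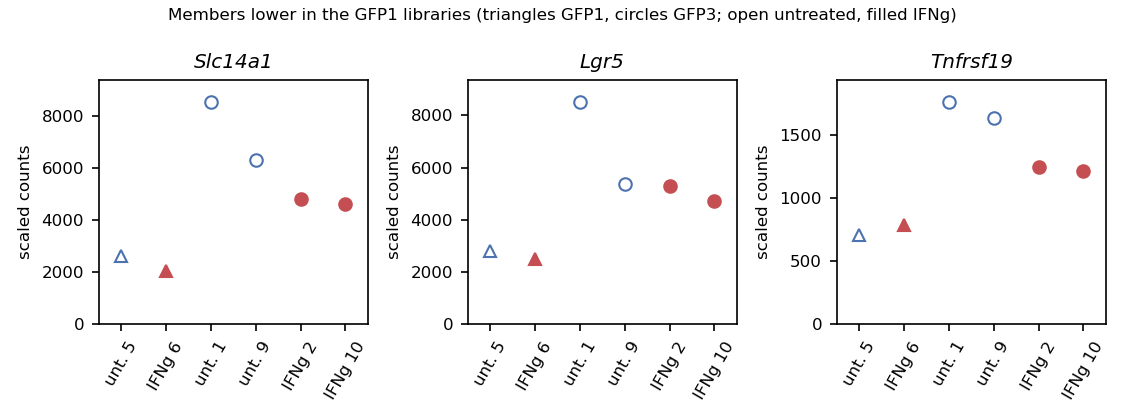
Scaled counts of Slc14a1, Lgr5 and Tnfrsf19 per library; triangles are GFP1, circles GFP3, open symbols untreated and filled symbols IFNg. Both triangles lie below all 4 circles in each panel, for Lgr5 at 2801 and 2484, in genes chosen by their tag difference.

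Other genes around the Wnt pathway were read in the same way. In 11 further lists with 125 tested genes 0 were called in limma over all 6 libraries (beside 0.429% of all genes). In DESeq2 7 were higher (beside 2.84%). At an unadjusted p under 0.05 in limma, 16 were higher (beside 8.46%) and 0 lower (beside 0.758%). The median log2 change of the 125 genes was 0.13, beside -0.08 over all genes. These lists too were drawn up with earlier results known, and the GFP3 libraries gave 2 a group, so shares there are a description. In the GFP3 libraries 27 of the 125 rose (21.6%, beside 8.27%) and 0 fell. By role, these were 6 of 14 other Wnt targets, 7 of 18 nuclear factors, 4 of 23 cytoplasmic components, 4 of 13 genes of the EGF, BMP and Notch pathways, 3 of 12 receptors, 2 of 9 injury and fetal-like markers and 1 of 20 other crypt base genes. No tested Wnt ligand (8 of 18 in the table passed the minimum), Wnt secretion factor (2) or R-spondin (1 of 2) rose there. Nor did a tested gene of the list of secreted and surface Wnt inhibitors (5 of 13), which does not hold the member Sfrp5.

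Beta-catenin itself, Ctnnb1, had 17090.0, 8645 and 7499 scaled counts in untreated 5, 1 and 9 and 18547, 30916 and 28595 in IFNg 6, 2 and 10. Each IFNg library was above each untreated one, with untreated 5 and IFNg 6 close (log2 change 1.30 ± 0.36 SE, limma adjusted p = 0.296; 0.00333 in the GFP3 libraries). Among other targets, Enc1, an actin-binding ectodermal-neural cortex protein, came nearest to the threshold with 198, 233 and 113 scaled counts in untreated 5, 1 and 9 and 675, 558 and 861 in IFNg 6, 2 and 10 (log2 change 1.98 ± 0.36 SE, limma adjusted p = 0.0746; DESeq2 adjusted p = 2.49e-05). Here all 3 IFNg libraries were high, IFNg 6 included. The intestinal homeobox genes Cdx1 and Cdx2 had log2 changes of 2.28 and 1.88 (limma adjusted p = 0.311 and 0.286). Sox4 and Areg had 2.33 and 2.35 (limma adjusted p = 0.309 and 0.111). DESeq2 called these 4 (adjusted p = 0.0407, 0.0283, 0.00725 and 0.00305). With Enc1, Ly6a and Smad1 (DESeq2 adjusted p = 2.71e-05 and 0.00106 for the last 2) they made up its 7 calls, where 2.84% of all genes were called higher. Ly6a (Sca-1), an interferon-responsive surface marker of injured and fetal-like epithelium, had 360.3, 433 and 398 scaled counts in untreated 5, 1 and 9 and 1078, 1634 and 934 in IFNg 6, 2 and 10. The groups were well apart (log2 change 1.57 ± 0.30 SE, limma adjusted p = 0.0954; 0.0450 with the tag as a block, where 0.671% of all genes were called higher). Smad1, a BMP signal transducer, had 1368 ± 378 and 3778 ± 826 scaled counts (SD, n = 3 a group; log2 change 1.48 ± 0.31 SE, limma adjusted p = 0.139).

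The genes with the smallest p in the remaining lists did not pass. The receptor Ror2 had a log2 change of 1.50, the corepressor Ctbp1 one of 1.33 and the potassium channel Kcnq1 of the crypt base one of 1.29 (limma adjusted p = 0.511, 0.453 and 0.463). Wls, which carries Wnt proteins to the cell surface, had one of -0.26, and the low genes Wnt2b, Kremen2 and Rspo1 had 0.83, 1.39 and 0.49 (limma adjusted p = 0.894, 0.880, 0.710 and 0.971). The sign for Rspo1 turned negative in edgeR and DESeq2. The count of rises in the 125 genes was 6 without untreated 5 (beside 2.27% of all genes).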

How the data were processed

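RNA of sorted cells (2 ng) was copied with SMART-Seq v4 (12 cycles) and made into libraries from 10 ng cDNA (8 cycles), per the labels' protocols. The deposited values are a signal: gene counts that the authors scaled with DESeq, per the deposited table's name. The submitters' processing notes name DESeq 1.22.1, HTSeq 0.5.3, STAR 2.5.0a, cutadapt 1.6 and the build mm10, in roles and with an annotation not given in the sources used here. Dividing by what 1 read is worth gave whole reads for 100.0% of 138762 values (within 0.01 read). 4 rows without a gene were left out: they held 18.5 to 25.0% (not unique), 0.948 to 1.20% (ambiguous), 9.67 to 14.2% (no feature) and 8.83 to 15.4% (not aligned) of a library's total. A count of 0 allows up to 3 reads. No molecular identifiers are named, so this limit covers counting error only.

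The members and all gene lists were chosen with earlier results of these data known. Of 23127 genes, 16095 averaged 10 scaled counts or more and were tested with limma 3.58.1 (trend and robust) on log2(scaled count + 1), Benjamini-Hochberg adjusted over all of them, with a threshold of 0.05. EdgeR 4.0.16 and DESeq2 1.42.0 were run on recovered reads, in R 4.3.3, as alternatives. Further alternatives were another pseudocount, other filters, TMM scaling, blocks and leaving out each library. The tests were also run on simulated counts with an IFNg effect but no tag difference, so the simulation cannot show how they behave with one. Given per library were members with an unadjusted p below 0.05, groups that did not overlap or a call in any fit, the 3 highest per length, and Lgr5, Ascl2, Axin2, Lgr4, Rnf43 and Znrf3; of each other list, the gene with the smallest p. Cdx1 and Cdx2, and the remaining genes named, were chosen after their values were seen. Neighbouring title numbers were taken as pairs, since their deviations from the group means correlated at 0.302, 0.404 and 0.252 (5 and 6, 1 and 2, 9 and 10). All other pairs fell below 0, which adds little, because deviations within a group sum to 0 and partly force this. Gene positions and exon lengths are from GENCODE M21 (GRCm38), which matched 23006 genes by gene identifier without its version.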

Additional observations from a re-analysis of the deposited data

How the results depend on the processing

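The count of members called after IFNg was 0 with a pseudocount of 5, without the low-value filter, with a mean of at least 50, with TMM scaling, in edgeR, with neighbouring title numbers as a replicate block and with the title tag as a block. It was 1 in DESeq2 and 9 in the GFP3 libraries, and leaving out 1 library gave 0 to 3, the 3 without untreated 5. For the other Wnt pathway genes the count was 0 in the first 5 of those settings and with the replicate block. It was 7 in DESeq2, 1 with the tag as a block and 27 in the GFP3 libraries (beside 2.84%, 0.671% and 8.27% of all genes called higher). Leaving out 1 library gave 0 to 6. The replicate block changed no call of a member, in all libraries (0) or in the GFP3 libraries (9). Members differing between tags numbered 5 with a mean of at least 50, 5 with TMM scaling and 10 in DESeq2 (beside 10.4%, 9.0% and 17.9% of all genes), and 0 to 4 when 1 library was left out. For the difference of the IFNg effect between tags the count was 6 in DESeq2 and 0 to 5 when 1 GFP3 library was left out; without a GFP1 library it could not be fitted. Within the GFP3 libraries, by alternatives chosen after seeing the data, it was 9 in all settings with the 4 libraries except DESeq2 (11), and 6 to 11 when 1 was left out, Soat1 being lower without untreated 9. The cause of these shifts was not tested.

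Some small log2 changes, none past the threshold, turned sign. In the GFP3 libraries Lgr4 was 0.17, Cdca7 -0.0843 and Rspo1 -0.18. In DESeq2 Axin2 was 0.0149, Hopx 0.0128 and Rspo1 -0.26. In edgeR Msi1 was -0.0446, Tcf7 -0.0279 and Rspo1 -0.40, and with TMM scaling Msi1 was -0.0345 and Tcf7 -0.0207. Leaving out 1 library gave -0.77 to 0.0305 for Lgr5, -0.21 to 0.11 for Lgr4, -0.26 to 0.14 for Axin2, -0.15 to 0.25 for Cdca7, -0.15 to 0.28 for Msi1, -0.34 to 0.20 for Hopx, -0.36 to 0.12 for Slc12a2, -0.30 to 0.0398 for Aqp4, -0.0580 to 0.18 for Tcf7 and -1.22 to 2.62 for Rspo1. TMM scaling moved the median of all genes from -0.08 to -0.12. Depth was not small for most members, but 3 libraries a group, and 1 GFP1 library a group, limit every comparison.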
